A study of Homo sapiens with 3 samples.

Results

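The CXC chemokines described here are 9 human genes, CXCL1, CXCL2, CXCL3, CXCL5, CXCL6, CXCL8, CXCL10, CXCL11 and CXCL16, taken by gene name from a table of 58735 genes. RNA sequencing gave 1 library for each of 3 groups, or 3 libraries in all, from cells labelled HCT116, a line derived from a human colorectal carcinoma. The groups were cells overexpressing ZEB1 K80R, cells overexpressing wild-type ZEB1, and cells with an empty vector as the control. ZEB1 is a zinc-finger transcription factor of the epithelial-mesenchymal transition, and in the K80R form a lysine is replaced by an arginine. All 3 groups were grown in DMEM with serum and antibiotics, and the treatment label reads control for all 3. The sources used here do not state the vector, its promoter, or whether a line is a pool or a clone. By its title, the series asks how K80R bears on NF-κB, epithelial-mesenchymal transition and pro-inflammatory genes.

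CXC chemokines are small secreted proteins that direct the movement of leukocytes through G protein-coupled receptors. CXCL1, CXCL2, CXCL3, CXCL5, CXCL6 and CXCL8 carry a glutamate-leucine-arginine motif before their first cysteines and attract neutrophils, mainly through the receptor CXCR2. CXCL10 and CXCL11 lack that motif, are induced by interferons and attract activated T cells through CXCR3. CXCL16 is made as a transmembrane protein, binds CXCR6 and is released by cleavage at the cell surface. In epithelial tumour cells the neutrophil-attracting members are known targets of NF-κB, the transcription factor downstream of interleukin-1 and TNF.

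The promoters of the members are shown because those on chromosome 4 share an NF-κB-type (κB) element. RefSeq promoters (GRCh38.p14, bases before the annotated start) were found for 8 of the 9 members, and CXCL16 had no entry. Each line below gives 70 bases on the strand of the gene, 5′ to 3′, with the κB match in capitals. The starts are those of RefSeq and can differ from the gene coordinates of the deposited table. By the latter the lines of CXCL3, CXCL6 and CXCL11 lie wholly inside the gene. The windows are chr4:73869285-73869354 (plus strand) for CXCL1, chr4:74099233-74099302 (minus) for CXCL2, chr4:74038728-74038797 (minus) for CXCL3, chr4:73998728-73998797 (minus) for CXCL5, chr4:73836559-73836628 (plus) for CXCL6, chr4:73740448-73740517 (plus) for CXCL8, chr4:76023634-76023703 (minus) for CXCL10 and chr4:76036106-76036175 (minus) for CXCL11.
CXCL1: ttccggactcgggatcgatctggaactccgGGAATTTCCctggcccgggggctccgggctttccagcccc
CXCL2: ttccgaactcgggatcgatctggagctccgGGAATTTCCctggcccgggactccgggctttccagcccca
CXCL3: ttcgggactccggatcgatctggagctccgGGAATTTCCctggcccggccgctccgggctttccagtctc
CXCL5: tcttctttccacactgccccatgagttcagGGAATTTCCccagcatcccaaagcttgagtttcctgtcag
CXCL6: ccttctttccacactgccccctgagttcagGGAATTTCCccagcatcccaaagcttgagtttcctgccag
CXCL8: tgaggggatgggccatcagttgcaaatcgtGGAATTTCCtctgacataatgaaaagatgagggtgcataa
CXCL10: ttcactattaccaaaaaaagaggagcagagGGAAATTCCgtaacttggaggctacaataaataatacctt
CXCL11: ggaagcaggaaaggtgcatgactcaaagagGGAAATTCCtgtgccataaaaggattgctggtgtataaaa
The letters GGAATTTCC, read on both strands, stood within the 250 bases before the start in 8 of 8 members, against 0.413% of 35116 promoters. These letters, like the motifs below, were chosen after the promoters were seen, so such shares are no test of enrichment. The match stood on the strand of the gene in the 6 neutrophil-attracting members and on the other strand, as GGAAATTCC, in CXCL10 and CXCL11. Aligned on the match without gaps, the windows of CXCL1 and CXCL3 were identical at 63 of 70 positions and those of CXCL5 and CXCL6 at 67 of 70, while the window of CXCL8 matched the other 7 at 19 to 30 positions. A match describes the letters only and shows no binding.

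The longer upstream stretch of CXCL8 is shown because this gene carried most of the signal of the group. It covers chr4:73740319-73740568 on the plus strand, with an AP-1 match (TGACTCA), the κB match (GGAATTTCC) and a TATA match (TATAAA) in capitals, in that order.
CXCL8: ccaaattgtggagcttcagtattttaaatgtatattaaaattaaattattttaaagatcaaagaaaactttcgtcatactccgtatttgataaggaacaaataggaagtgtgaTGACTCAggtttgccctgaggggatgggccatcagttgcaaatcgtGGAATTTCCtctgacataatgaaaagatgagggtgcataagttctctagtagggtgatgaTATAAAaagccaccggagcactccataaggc
TGACTCA on either strand was present in 2 of 8 members, CXCL8 and CXCL11, and in 4.2% of promoters. TATAAA on either strand was present in the same pair and in 10.7% of promoters. An interferon-response pattern, GAAANNGAA on either strand, was present in CXCL2, CXCL3 and CXCL10, in the last as GAAAGTGAA starting 221 bases before the start, and in 6.88% of promoters.

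The values are FPKM, fragment counts divided by gene length and by library size, from which whole reads could be recovered. The libraries held 13479517 reads for ZEB1 K80R, 14322537 for wild-type ZEB1 and 14764535 for empty vector. Since no group had a replicate, there was no spread between cultures to compare a difference with, no test of the conditions was possible and no p-value is given. Intervals in brackets are exact 95% counting intervals, which cover counting error only. ZEB1 itself was at 10.3 FPKM with K80R, 9.83 with wild-type ZEB1 and 5.66 with the empty vector. Its ratio to empty vector was 1.74 for wild type and 1.82 for K80R. Scaling to a common sum of FPKM shifts log2 ratios to empty vector by −0.458 for wild type and −0.440 for K80R. Both ratios of ZEB1 would be smaller on that scale. Of 15 markers of colon epithelium, 9 had 0 reads in all 3 libraries, EPCAM, CDH1 and CDX2 among them, so the markers go against the label HCT116 except for the keratins KRT8 and KRT18. The empty vector library had reads on 18928 genes, fewer than the 24325 of the K80R and the 23457 of the wild-type ZEB1 library, and 1.29% of its reads were mitochondrial, against 9.75% in the K80R and 7.77% with wild-type ZEB1. The part of these library differences in the comparisons with empty vector was not tested.

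CXCL8, the neutrophil chemokine interleukin-8 (ENSG00000169429; GRCh38, chromosome 4, 73740506 to 73743716, plus strand), was high with wild-type ZEB1 alone. It stood at 12.5 FPKM from 380 reads with ZEB1 K80R, 179 FPKM from 5613 reads with wild-type ZEB1 and 9.05 FPKM from 327 reads with the empty vector. The K80R and empty vector libraries lay close together and the wild-type ZEB1 library far above both. The level in K80R was 7.01% of that in wild type, a ratio of 0.0701 (0.0630 to 0.0778). Wild type stood 19.8-fold above empty vector (17.7 to 22.2), and K80R 1.39-fold above it (1.19 to 1.61). At a common sum of FPKM this last ratio was 1.02, and without mitochondrial genes in that sum it was 1.46. By level, CXCL8 ranked 3412 among all genes with K80R, 172 with wild-type ZEB1 and 4695 with the empty vector.

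CXCL3, also called GRO-gamma and a ligand of CXCR2 (ENSG00000163734; chromosome 4, 74036589 to 74038807, minus strand), had the same order of libraries at a lower level. Its FPKM was 1.62 from 48 reads with K80R, 13.4 from 409 reads with wild-type ZEB1 and 1.13 from 40 reads with the empty vector. K80R stood at 0.122 times the level of wild type (0.0882 to 0.164), and wild type 11.8-fold above empty vector (8.50 to 16.7). K80R and empty vector could not be told apart by their counts, with a ratio of 1.43 (0.921 to 2.23).

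**Figure D1:**
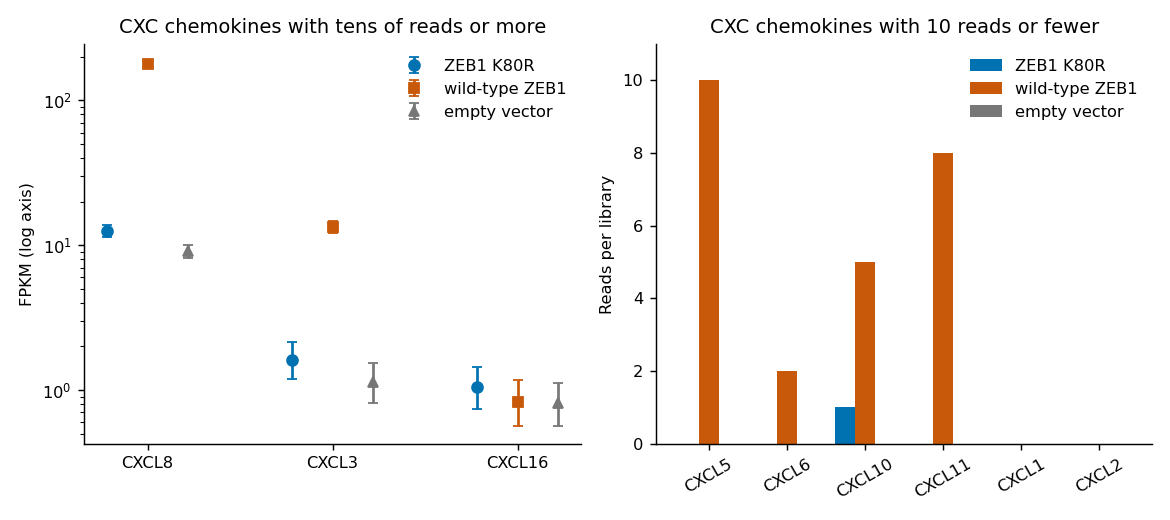
Left, FPKM of CXCL8, CXCL3 and CXCL16 on a log axis in the ZEB1 K80R, wild-type ZEB1 and empty vector libraries, with exact 95% counting intervals as bars; right, reads per library of the other 6 members. The wild-type ZEB1 library stands at 179 FPKM for CXCL8 and 13.4 for CXCL3, above both other libraries, whereas the intervals of CXCL16 overlap in all 3, and no library exceeds 10 reads for any gene on the right.

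Within the group of 9, CXCL8 and CXCL3 were the members whose FPKM averaged 1 or more over the libraries, the filter used here for a measured gene, and each was above 1 in every library. In K80R against wild type both were lower by at least 1.5-fold in FPKM + 1, the measure used for all genes, where 5.18% of the 12605 measured genes were lower and 4.42% higher. In wild type against empty vector both were higher, where 14.2% of genes were higher and 11.1% lower. In K80R against empty vector neither passed 1.5-fold, where 12.6% of genes were higher and 13.0% lower. On the scale of log2(FPKM + 1), the difference of CXCL8 was −3.73 for K80R minus wild type, 4.16 for wild type minus empty vector and 0.43 for K80R minus empty vector. Those of CXCL3 were −2.45, 2.75 and 0.30 in the same order. Over all 12605 genes the medians were −0.02, 0.01 and 0.00. CXCL8 had the lowest difference of all 12605 genes for K80R minus wild type and CXCL3 ranked 11 from the lowest. For wild type minus empty vector they ranked 3 and 37 from the highest.

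**Figure D2:**
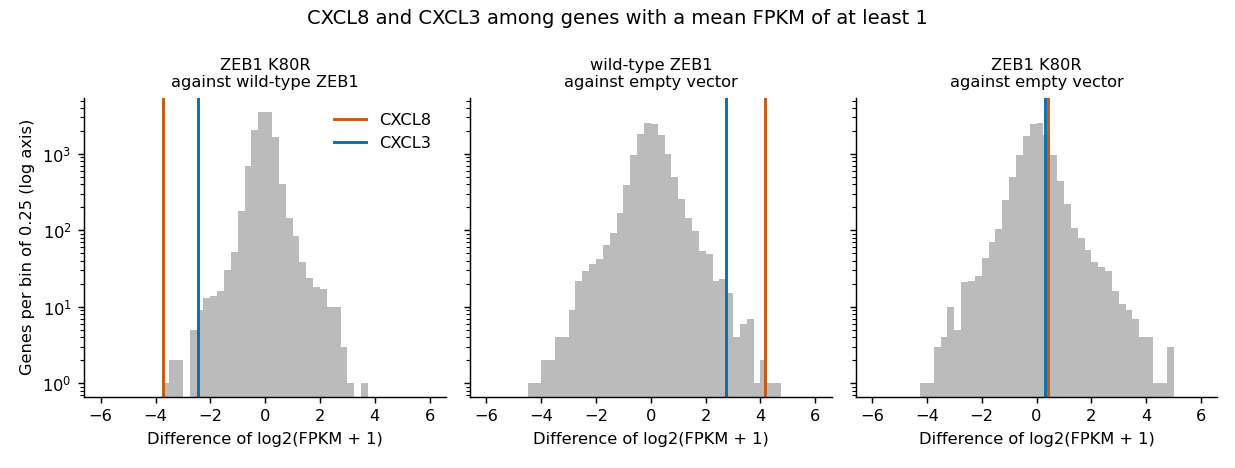
Histograms of the difference of log2(FPKM + 1) over the 12605 measured genes, on a log count axis, for the 3 comparisons, with vertical lines at CXCL8 and CXCL3. The lines lie at −3.73 and −2.45, in the lower tail, for K80R against wild type, at 4.16 and 2.75, in the upper tail, for wild type against empty vector, and at 0.43 and 0.30, within the bulk, for K80R against empty vector.

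The ratio of CXCL8 to CXCL3 within a library does not depend on how libraries are scaled. It was 7.73 (5.71 to 10.7) with K80R, 13.4 (12.1 to 14.8) with wild-type ZEB1 and 7.98 (5.73 to 11.4) with the empty vector. The interval of the wild-type ZEB1 library lay above both others, which overlapped each other. Summed over the 9 members, FPKM came to 15.3 with K80R, 194 with wild-type ZEB1 and 11.0 with the empty vector, of which CXCL8 made up 82.1%, 92.2% and 82.3%. In bulk RNA, fewer cells that make a chemokine and less of its RNA per cell cannot be told apart.

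CXCL5 and CXCL6, close relatives in the same cluster that act through CXCR2, had few reads, all of them with wild-type ZEB1. CXCL5 (ENSG00000163735; chromosome 4, 73995642 to 73998779) had 0 reads with K80R, 10 with wild-type ZEB1 (0.286 FPKM) and 0 with the empty vector. A floor of 3 reads per library was taken as the limit for a count of 0. Against that floor, with its own reads taken as counted, CXCL5 was 3.22-fold lower in K80R than in wild type. This is not a bound, because counting error in the wild-type reads is left out. The lower end of its counting interval with wild-type ZEB1 was 0.137 FPKM, and the upper end with K80R was 0.109 FPKM. On that floor wild type stood 3.84-fold above empty vector. The empty vector library, though, had 350 genes with 1 read, against 2705 with wild-type ZEB1 and 2902 with K80R. A 0 there may therefore not bound the level. CXCL6 (ENSG00000124875; chromosome 4, 73836497 to 73849064) had 2 reads with wild-type ZEB1 and 0 in the others, so all its counts lay under the floor.

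CXCL1 and CXCL2, the other GRO chemokines and close relatives of CXCL3, had 0 reads in all 3 libraries. For CXCL1 (ENSG00000163739; chromosome 4, 73869393 to 73871242) the floor of 3 reads lies at an FPKM of 0.174 with K80R, 0.168 with wild-type ZEB1 and 0.146 with the empty vector. For CXCL2 (ENSG00000081041; chromosome 4, 74097035 to 74099293) these limits were 0.150, 0.145 and 0.126. CXCL3, with 409 reads with wild-type ZEB1, carries the same match, GGAATTTCC, in its promoter as CXCL1 and CXCL2. Reads from stretches common to these genes could be lost or misplaced, so the transcripts were compared. Of all 50-base stretches in the annotated transcripts, 4.81% of CXCL1, 12.5% of CXCL2 and 6.01% of CXCL3 occurred in another gene, and of 100-base stretches 0%, 5.00% and 3.27%. For CXCL8 the share was 0% at both lengths. The sources used here do not state the read length or the treatment of shared reads.

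CXCL10 and CXCL11, which recruit T cells through CXCR3, were near the limit of detection. CXCL10 (ENSG00000169245; chromosome 4, 76021117 to 76023497) had 1 read with K80R, 5 with wild-type ZEB1 and 0 with the empty vector. K80R stood at 0.207 times wild type (0.00438 to 1.85). The counting interval of its level with wild-type ZEB1 reached below the floor of 3 reads with the empty vector, 0.161 FPKM, so no difference was detectable at this depth. CXCL11 (ENSG00000169248; chromosome 4, 76033682 to 76041415) had 0 reads with K80R, 8 with wild-type ZEB1 and 0 with the empty vector. Against the floor of 3 reads, with its own reads taken as counted, it was 2.57-fold lower in K80R than in wild type, which is not a bound. The lower end of its counting interval with wild-type ZEB1, 0.131 FPKM, lay just above that floor with K80R, 0.118 FPKM. It lay below the upper end of the counting interval with K80R, 0.145 FPKM, so the intervals of the 2 levels overlapped. On the same floor wild type stood 3.07-fold above empty vector, where a 0 may not bound the level. Both genes lie inside the span of ART3 on the other strand, which had 0 FPKM in all 3 libraries.

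CXCL5 and CXCL11 had reads with wild-type ZEB1 alone, whereas CXCL10, with 5 reads in that library, also had 1 with K80R. Of 2421 genes with 5 to 10 reads in that library, 6.69% had 0 reads with K80R, 38.7% had 0 with the empty vector and 4.75% had 0 in both. Of 2791 genes with 2 to 3 reads there, as CXCL6 had, 27.4% had 0 in both other libraries. A zero with the empty vector was thus common for genes of such low counts. Members and genes were both taken by their reads with wild-type ZEB1, so these shares are no test of the members.

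CXCL16, the membrane-bound ligand of CXCR6 (ENSG00000161921; chromosome 17, 4733526 to 4739922, minus strand), had similar counts in all 3 libraries. It stood at 1.05 FPKM from 39 reads with K80R, 0.830 from 32 reads with wild-type ZEB1 and 0.811 from 36 reads with the empty vector. The ratio was 1.26 (0.771 to 2.08) for K80R against wild type, 1.02 (0.615 to 1.70) for wild type against empty vector and 1.29 (0.800 to 2.09) for K80R against empty vector. These intervals hold 1, and no difference was detectable at this depth. At a common sum of FPKM the ratios to empty vector were 0.745 for wild type and 0.952 for K80R, so their direction depends on the scale. The gene overlaps MED11 on the other strand by 85 bases.

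**Figure D3:**
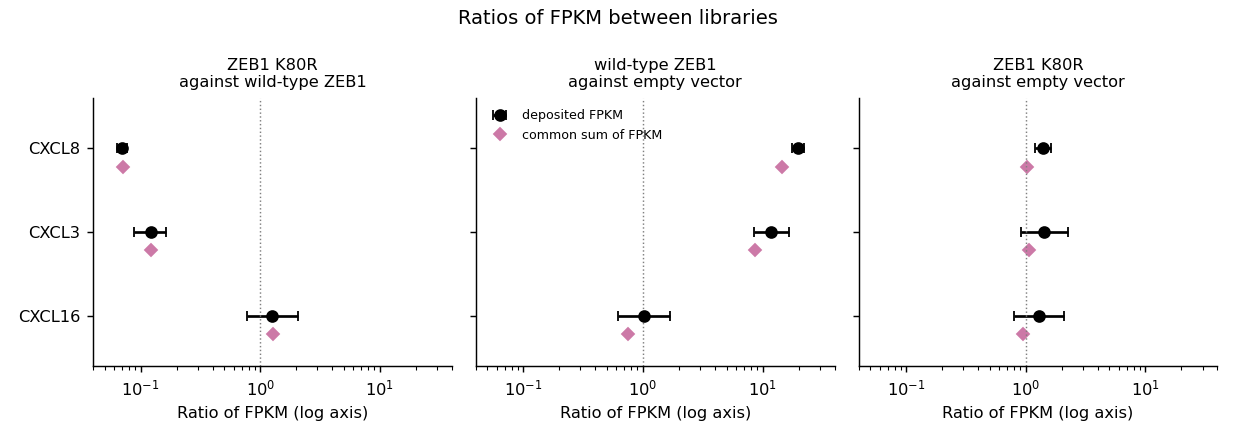
Ratios of FPKM on a log axis for CXCL8, CXCL3 and CXCL16 in the 3 comparisons; black points with exact 95% counting intervals are the deposited values and diamonds the values at a common sum of FPKM, and the dotted line marks a ratio of 1. CXCL8 and CXCL3 lie below 1 for K80R against wild type and above 1 for wild type against empty vector on both scales, and CXCL16 has intervals that hold 1 throughout.

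Ordered by level, CXCL8 was the highest member in each library. In the wild-type ZEB1 library it was followed by CXCL3, then CXCL16, then CXCL10, CXCL11 and CXCL5, at 0.308, 0.304 and 0.286 FPKM, whose counting intervals overlap. In the K80R and the empty vector libraries CXCL3 and CXCL16 followed CXCL8, and the counting intervals of these 2 members overlapped in each of those libraries.

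The protein-coding genes with the pattern nearest to CXCL8 over the 3 libraries, by the distance between their differences of log2(FPKM + 1) from empty vector, were ICAM1, TNFAIP3 and MMP9, at distances of 0.67, 0.92 and 1.00. ICAM1, a leukocyte adhesion receptor, stood at 0.344 FPKM with K80R, 12.3 with wild-type ZEB1 and 0.153 with the empty vector. Nearest to CXCL3 were IL1A, PTX3 and DEPP1, at 0.14, 0.33 and 0.36. PTX3, a secreted pattern-recognition protein, stood at 43.3 FPKM with K80R, 221 with wild-type ZEB1 and 39.4 with the empty vector. DEPP1 stood at 9.45, 41.3 and 6.99 FPKM in the same order. These genes were sought among 10370 for their likeness, so they support nothing further.

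The 6 neutrophil-attracting members lie within 359 kb of chromosome 4, and the other measured genes around them did not have the pattern of CXCL8 and CXCL3. Of the 18 protein-coding genes in this span and 500 kb on either side, 5 were measured at that filter. Beside CXCL8 and CXCL3 these were ANKRD17, MTHFD2L and AREG. The folate enzyme gene MTHFD2L, which follows CXCL2, stood at 1.10, 1.17 and 1.12 FPKM in the K80R, wild-type ZEB1 and empty vector libraries. AREG, the EGF receptor ligand amphiregulin, stood at 1.14, 0.924 and 1.30 FPKM in the same order, with a ratio of K80R to wild type of 1.23 (0.662 to 2.32). ANKRD17 stood at 19.5, 13.3 and 13.9 FPKM, a ratio of K80R to wild type of 1.47 (1.39 to 1.55), opposite in direction to the chemokines. The related platelet chemokine genes inside the cluster, PF4, PF4V1 and PPBP, had 0 reads in all libraries except for 2 reads of PPBP with K80R.

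**Figure D4:**
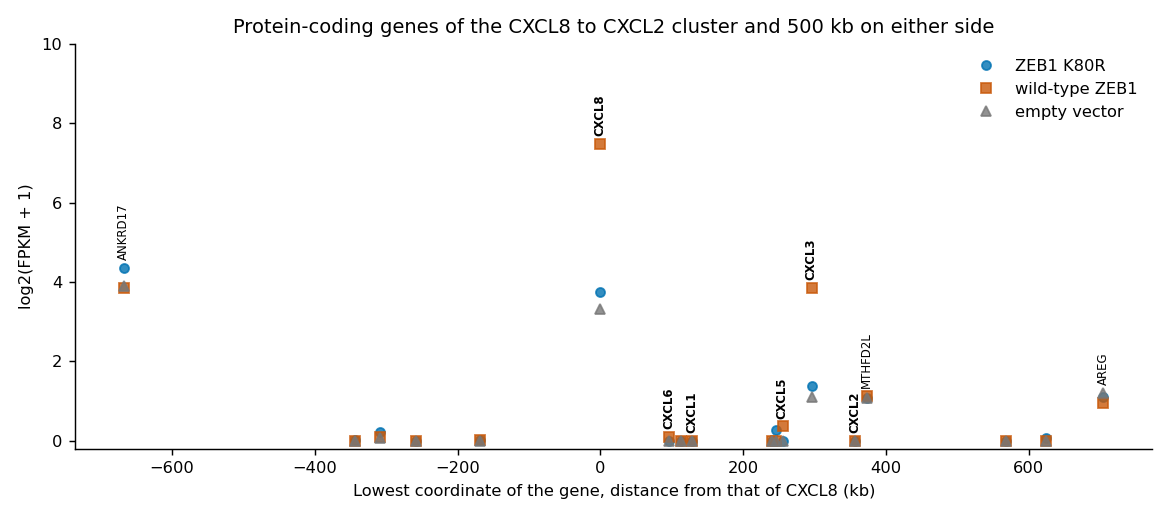
Level as log2(FPKM + 1) of the protein-coding genes of the cluster from CXCL8 to CXCL2 and 500 kb on either side, by distance of the lowest coordinate of each gene from that of CXCL8 in kb, in the ZEB1 K80R, wild-type ZEB1 and empty vector libraries; chemokine members are in bold, and unlabelled points are genes whose FPKM averaged under 1. The wild-type ZEB1 squares stand apart from both other libraries at CXCL8 and CXCL3, whereas at MTHFD2L the 3 symbols coincide.

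Receptors for these ligands were scarcely detected. Of 8 receptor genes none had a mean FPKM of 1, and CXCR1, CXCR3, CXCR5, ACKR1 and ACKR3 had 0 reads in all 3 libraries. CXCR2, the receptor of CXCL8 and CXCL3, had 5 reads with K80R, 2 with wild-type ZEB1 and 0 with the empty vector. CXCR6, the receptor of CXCL16, had 29, 12 and 21 reads, a ratio of K80R to wild type of 2.50 (1.24 to 5.38). CXCR4, which binds CXCL12, had 8, 7 and 6 reads. Of 8 other CXC ligand genes, 6 had 0 reads in all libraries, CXCL12 and CXCL14 among them.

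Among 8 genes that process or present chemokines, 7 were measured, and 1 of them was at least 1.5-fold lower in K80R than in wild type and none higher, beside 5.18% and 4.42% of all genes. The lower gene was SDC4, a syndecan whose heparan sulphate chains bind chemokines, at 46.8 FPKM with K80R, 91.4 with wild-type ZEB1 and 50.7 with the empty vector. The sheddases that cleave CXCL16 differed little between K80R and wild type, ADAM10 at 18.7, 16.5 and 12.0 FPKM and ADAM17 at 15.9, 14.5 and 13.6 in the K80R, wild-type ZEB1 and empty vector libraries. The syndecan SDC2 stood at 1.97, 2.22 and 2.05 FPKM in the same order. ANPEP, an aminopeptidase that trims chemokines, named after its values were seen, stood at 402, 377 and 125 FPKM, high in both overexpression libraries.

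Cytokines that induce CXC chemokines, and their receptors, held 14 measured genes of 24. In K80R against wild type 4 were lower, 10 within 1.5-fold and none higher, where 5.18% of all genes were lower and 4.42% higher, with a median difference of −0.12, or 0.03 at a common sum without mitochondrial genes. The lower genes were the cytokines IL1A, IL1B and TNF and the interferon-gamma receptor subunit IFNGR2. IL1A stood at 8.62, 44.9 and 6.34 FPKM in the K80R, wild-type ZEB1 and empty vector libraries, and IL1B at 42.5, 111 and 30.3. TNF had 3, 70 and 2 reads and passed the mean through the wild-type ZEB1 library alone. Its place among the lower genes here, and the higher genes of the next comparison, therefore supports nothing. In wild type against empty vector 9 of the 14 were higher and none lower (5 and none at a common sum), where 14.2% of all genes were higher and 11.1% lower (6.27% and 32.6%). In K80R against empty vector 5 were higher and none lower (1 and 1 at a common sum), where 12.6% of all genes were higher and 13.0% lower (5.80% and 32.5%). TLR3, at 1.88, 1.47 and 0.506 FPKM, is among the higher genes of both comparisons with empty vector. It passed the mean through the overexpression libraries, so its place there supports nothing either. The interleukin-1 receptor IL1R1 had 16, 17 and 5 reads.

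Of 25 transcriptional regulators of CXC promoters and proteins that limit them, 22 were measured, each above 1 in every library. NFKBIA and TNFAIP3 are of the latter kind. In K80R against wild type 13 were lower, 1 was higher and 8 lay within 1.5-fold, with a median difference of −0.82, where 5.18% of all genes were lower and 4.42% higher. In wild type against empty vector 11 were higher and none was lower. The median was 0.58, and at a common sum it was 0.15, with 9 higher and 1 lower. Of all genes 14.2% were higher and 11.1% lower there, or 6.27% and 32.6% at a common sum. In K80R against empty vector 2 were higher and 2 lower, with a median of 0.14, and at a common sum none was higher and 6 were lower, with a median of −0.28. Of all genes 12.6% were higher and 13.0% lower in that comparison, or 5.80% and 32.5% at a common sum. RELB, an NF-κB subunit, stood at 4.16 FPKM with K80R, 18.5 with wild-type ZEB1 and 5.99 with the empty vector. NFKB2, the precursor of its partner p52, stood at 18.2, 55.0 and 19.6 FPKM in the same order, and NFKBIA, the inhibitor IκBα, at 23.4, 69.6 and 15.9. TNFAIP3, the NF-κB-limiting enzyme A20, stood at 2.93, 31.8 and 2.41 FPKM. The single higher gene was the AP-1 subunit FOS, at 5.08 FPKM with K80R, 2.98 with wild-type ZEB1 and 4.34 with the empty vector, named after its values were seen.

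Of 12 regulators of chemokine mRNA stability, 11 were measured, and 3 of these were lower and none higher in K80R than in wild type, or 1 and none at a common sum without mitochondrial genes. Over all genes 5.18% were lower and 4.42% higher, or 3.03% and 6.85% at that sum. ZC3H12A, the ribonuclease Regnase-1, stood at 6.83 FPKM with K80R, 17.3 with wild-type ZEB1 and 4.46 with the empty vector. ZFP36, which directs AU-rich mRNAs such as that of CXCL8 to decay, stood at 4.44, 7.93 and 1.19 FPKM, and its relative ZFP36L1 at 46.5, 71.6 and 26.5. In wild type against empty vector 4 genes were higher and none lower (3 and 3 at a common sum), beside 14.2% and 11.1% of all genes (6.27% and 32.6%). In K80R against empty vector 4 were higher and none lower (1 and 3 at a common sum), beside 12.6% and 13.0% of all genes (5.80% and 32.5%). ZC3H12A, ZFP36 and ZFP36L1 were, like CXCL8 and CXCL3, highest with wild-type ZEB1, whereas SRSF1, a splicing factor, was lowest there, at 21.4 FPKM with K80R, 16.5 with wild-type ZEB1 and 23.9 with the empty vector.

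**Figure D5:**
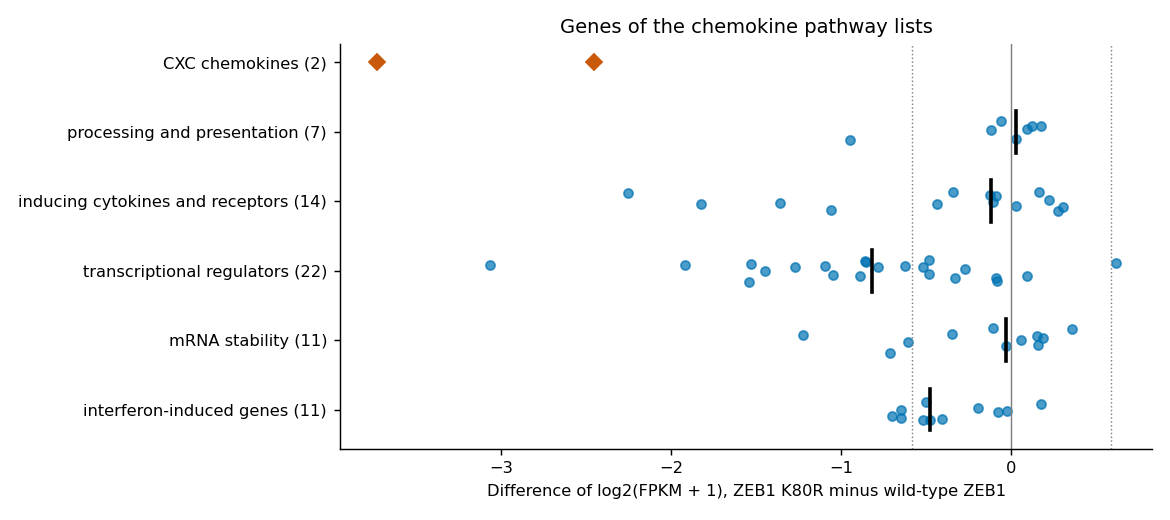
Difference of log2(FPKM + 1) for ZEB1 K80R minus wild-type ZEB1 of the measured genes in 5 lists, with black bars at the list medians, diamonds for CXCL8 and CXCL3, and dotted lines at 1.5-fold; the numbers in brackets count genes. CXCL8 and CXCL3 lie at −3.73 and −2.45, and the regulators centre on −0.82 and the processing and presentation genes on 0.03.

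Genes induced by interferon, as CXCL10 and CXCL11 are, numbered 16 in the list, of which 11 were measured. In K80R against wild type 3 were lower and none higher, with a median of −0.48, where 5.18% of all genes were lower and 4.42% higher. At a common sum without mitochondrial genes none was lower, where 3.03% of all genes were. The lower genes were ISG15, GBP2 and IFIH1, the last at 1.70 FPKM with K80R, 3.25 with wild-type ZEB1 and 1.13 with the empty vector. GBP2, a guanylate-binding protein, stood at 1.69 FPKM with K80R, 3.21 with wild-type ZEB1 and 1.35 with the empty vector, while the ubiquitin-like modifier ISG15 stood at 7.98, 13.6 and 23.6 and was highest with the empty vector. IFIT3, an antiviral protein, stood at 4.18, 6.42 and 4.03 FPKM. The interferon genes IFNB1 and IFNG had 0 reads in all 3 libraries.

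Markers of other cell types were present at low levels. Of 10 leukocyte markers, 6 had reads with K80R, 4 with wild-type ZEB1 and 3 with the empty vector, with summed levels of 1.85, 1.45 and 1.53 FPKM. CSF1R, the receptor of macrophage colony-stimulating factor and the measured marker of the list, had 92, 85 and 66 reads, with a ratio of wild type to empty vector of 1.48 (1.06 to 2.08). PTPRC, CD3E, S100A8 and FCGR3B had 0 reads in all 3 libraries. Of 9 markers of endothelium and fibroblasts, 6, 8 and 3 had reads in the same order, with sums of 2.71, 3.77 and 2.40 FPKM. The pericyte and fibroblast receptor PDGFRB stood at 1.54, 2.19 and 0.573 FPKM, with a ratio of wild type to empty vector of 3.83 (2.89 to 5.13), and the endothelial adhesion gene PECAM1 had 44, 53 and 16 reads, a ratio of 3.81 (2.15 to 7.15). The collagen gene COL1A1 stood at 0.680, 0.930 and 1.70 FPKM, lower in wild type than in empty vector, with a ratio of 0.548 (0.439 to 0.679). LUM had 0 reads in all 3 libraries. The part of these cell types in the levels of the chemokines was not tested.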

How the data were processed

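The authors deposited a table of FPKM values for 58735 genes with identifiers, gene lengths and coordinates. Per the submitters' processing notes, featureCounts 1.5.0-p3, DESeq2 1.20.0, CASAVA and the build hg38 were used, with no role stated. The sources used here give no aligner, annotation or strand setting. FPKM times gene length was a whole multiple of 1 step for 100.0% of values above 0 (tolerance 0.05 reads), which gave the reads, and the library sizes inside the FPKM were 0.988, 0.963 and 1.076 times the read sums of the K80R, wild-type ZEB1 and empty vector libraries. Groups were taken from the genotype label. Ratios are of FPKM, with exact conditional (Clopper-Pearson) 95% intervals, levels have exact Poisson intervals, and differences use log2(FPKM + 1), where the pseudocount of 1 shrinks the differences of low genes. A gene was counted past a ratio of FPKM + 1 of 1.5 where its mean FPKM was at least 1. The recovery and the intervals were tested on simulated data. Members and lists were chosen with earlier results of these data known, and the motifs after the promoters were seen. Named genes were the members, ZEB1 and the 3 genes nearest in pattern. Up to 4 genes a list were named by the size of the difference between K80R and wild type. Measured coding neighbours within 500 kb were all named for the cluster from CXCL8 to CXCL2, and in part for the other members. Other genes are named as list members or marked. Python 3.11.15, numpy 2.4.6, scipy 1.17.1 and pandas 2.3.3 were used.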

Additional observations from a re-analysis of the deposited data

How the results depend on the processing

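Over 60 recomputed counts of members past the threshold, 59 equalled the reported count or lay within 1.5 times of it. The exception was K80R against empty vector, where counting members whose interval of the ratio lay past 1 gave 1 higher member, CXCL8, in place of 0. Only CXCL8 and CXCL3 passed the filter and the other members stayed near or below 1 FPKM, so most of these counts could hardly change. Of 40 recomputed ratios of single members, 37 stayed inside the counting interval. The others were all of CXCL8. Its ratio of K80R to wild type was 0.0781 at a common sum without mitochondrial genes, a setting chosen after seeing the data. At a common sum of FPKM its ratio to empty vector was 14.4 for wild type and 1.02 for K80R. Leaving mitochondrial genes out of the sum gave 18.7 and 1.46, inside the counting intervals. The cause was not tested. The common sum with mitochondrial genes moved the median of all genes against empty vector to −0.36 for both overexpression libraries. It gave 790 higher against 4114 lower genes for wild type and 731 against 4093 for K80R. Without mitochondrial genes these medians were −0.05 and 0.07, with 1517 higher against 1686 lower genes and 1937 against 1391. The inducing cytokines and receptors then had 8 higher and none lower for wild type and 5 and none for K80R. For the transcriptional regulators these were 10 and none, and 4 and 2. For K80R against wild type the common sum without mitochondrial genes gave 863 higher and 382 lower genes, where the deposited values gave 557 and 653. No paired analysis was possible because each group had 1 library, and no replicate could be left out. Depth limits CXCL5, CXCL6, CXCL10 and CXCL11, with at most 10 reads, and CXCL16.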

Other observations

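The genes around the other members were not described above. CXCL10 and CXCL11 lie within 20.3 kb of each other, and of 19 protein-coding genes in that span and 500 kb on either side 7 had an FPKM averaging 1 or more, all of them other than chemokines. The nearest on one side was SDAD1, at 15.8 FPKM with K80R, 16.3 with wild-type ZEB1 and 15.0 with the empty vector. The nearest on the other side was the nuclear pore gene NUP54, at 12.2, 10.7 and 8.06 FPKM in the same order. None of the 7 was 1.5-fold lower in K80R than in wild type. The lysosomal membrane protein gene SCARB2, at 15.6, 14.1 and 10.05 FPKM, and the vesicle tethering gene USO1, at 35.0, 39.1 and 22.6, were lowest with the empty vector.

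Around CXCL16, MED11, a mediator subunit gene that overlaps it, stood at 3.05, 4.86 and 3.79 FPKM in the K80R, wild-type ZEB1 and empty vector libraries, with a ratio of K80R to wild type of 0.628 (0.448 to 0.874). The adaptor ARRB2, a beta-arrestin that binds activated chemokine receptors, lies beyond the 3′ end of the gene and stood at 2.49, 2.14 and 2.88 FPKM. The actin-binding PFN1, on the opposite side of CXCL16, stood at 354, 450 and 281 FPKM.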
